A study of Mus musculus with 4 samples.

Results

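The matrix metalloproteinases (Mmp genes), the ADAMTS proteases, the tissue inhibitors of metalloproteinases (Timp genes) and the lysyl oxidases were examined in gonadal white adipose tissue (WAT) of male NMRI mice, an outbred strain. Members were taken by gene symbol alone: Mmp, Adamts or Timp followed by a digit, and Lox with Loxl1 to Loxl4. Adamtsl genes were left out. This gave 49 genes of the 20239 named probe sets on the array, namely 22 Mmp, 18 Adamts, 4 Timp and 5 Lox genes. FD mice had received a fat diet (18% fat) for 8 days from the age of 40 days, and ND mice stayed on the normal diet (3.3% fat). All were 48 days old at sampling, and the diets came from different makers. RNA of 3 mice was pooled for each diet, and each pool was hybridised to 2 Affymetrix mouse gene arrays. A diet is therefore represented by 1 RNA pool, the SDs below describe arrays and not mice, no test of the diets exists, and a diet effect cannot be told apart from a difference between the pools.

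The extracellular matrix of fat tissue wraps every adipocyte and has to be opened and rebuilt when the pad grows. MMPs and ADAMTS enzymes are zinc proteases that cut collagens, proteoglycans and other matrix proteins, TIMPs block them in the catalytic site, and lysyl oxidases are copper enzymes that cross-link collagen and elastin outside the cell. In WAT, most of these genes are known from fibroblasts, preadipocytes and other stromal cells.

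Expression was read as log2 values of the RMA summary, so that a step of 1 is a doubling of signal, and differences are FD minus ND. A gene was called higher or lower in FD on 3 conditions. The diets differed by 1.5-fold or more (0.58 in log2). Both FD arrays lay above both ND arrays, or both lay below them. The gene averaged 6 or more over the 4 arrays. Of the 49 genes, 46 reached that level. Mmp1a, Mmp1b and Mmp8, at means of 4.96, 4.86 and 5.11, did not and are not counted further. Levels are not compared between genes, since each probe set has its own response. In the FD pool, 3 members were higher, the lysyl oxidase genes Loxl2 and Loxl1 and the protease gene Adamts16, and 1 was lower, the protease gene Mmp7. The higher members make 6.52% of the 46, against 1.33% of all 18211 probe sets at that level called higher. The lower one makes 2.17%, against 4.28% of all probe sets called lower.

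Most of the other members had small positive differences. Of the 46, 42 had a difference above 0, against 10291 of the 18211 probe sets at that level. A difference smaller than 0.3 in size was found in 33 of the 46, against 14827 of the 18211. Both FD arrays lay above both ND arrays in 32 members, or 69.6%, against 36.3% of all probe sets, and below them in 3, or 6.52%, against 27.2%. The median difference of the 46 was 0.17, against 0.03 over all probe sets at that level. This sign depended on the scaling: with each array centred on 13 adipocyte markers, which lowers every difference by 0.27, the median was -0.10 and 15 members were positive and 31 negative. By family, the median was 0.53 for lysyl oxidases, 0.28 for TIMPs, 0.16 for ADAMTS genes and 0.15 for MMPs, and with that centring 0.26, 0.01, -0.11 and -0.12 in the same order.

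**Figure D1:**
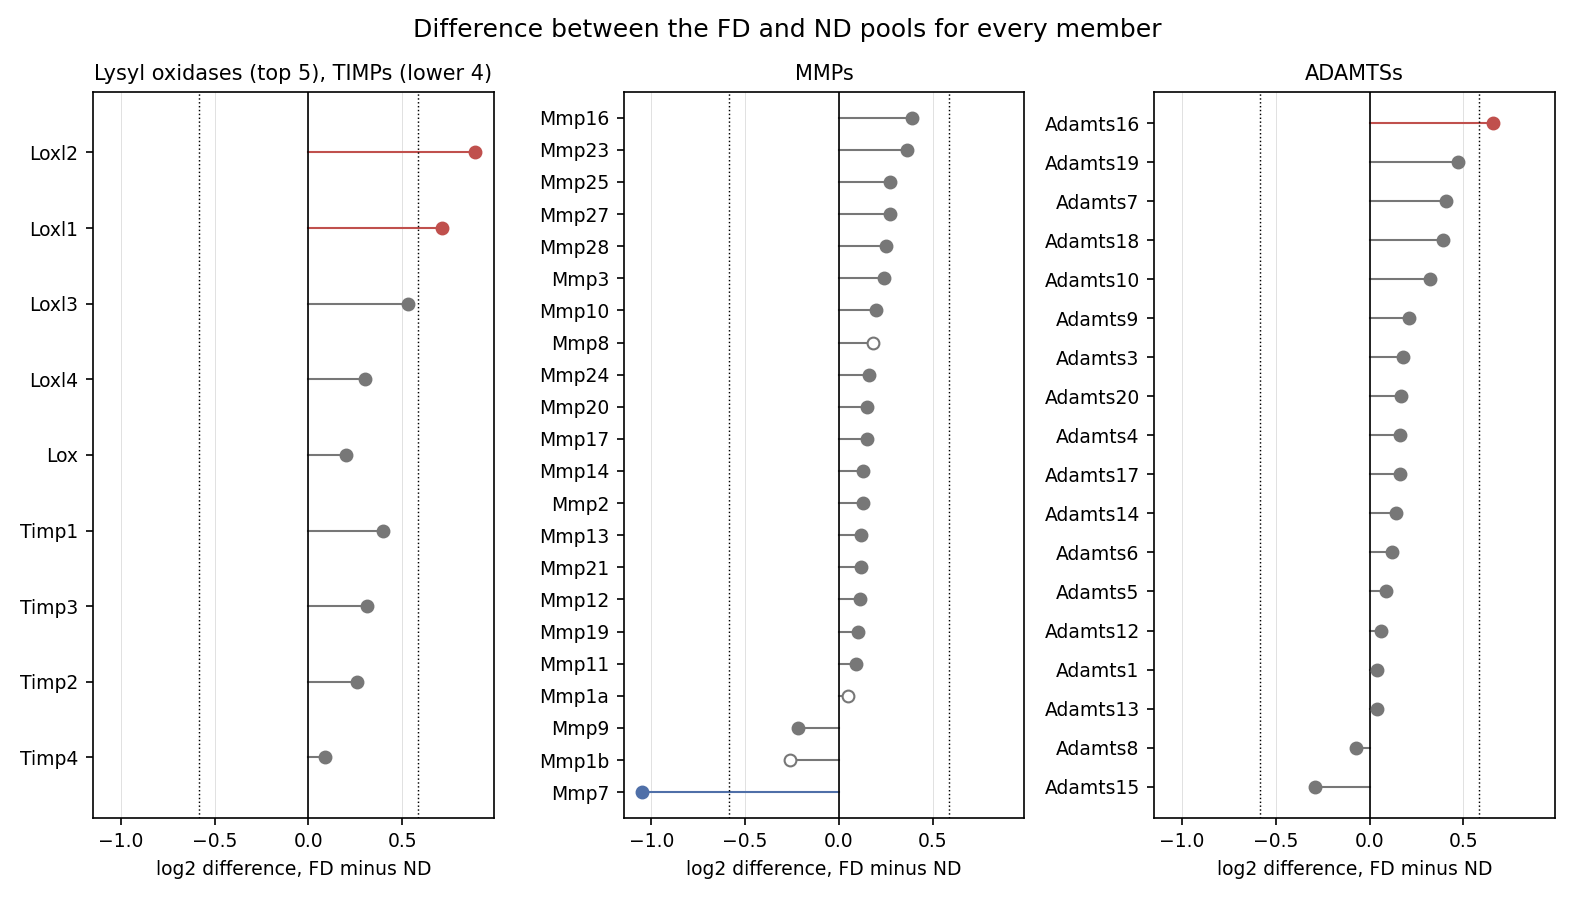
Log2 difference, FD minus ND, of each of the 49 members (horizontal axis), by family; dotted lines mark 1.5-fold, red and blue mark members called higher and lower in FD, and open circles the 3 members under the level of 6. Loxl2 (0.89), Loxl1 (0.71) and Adamts16 (0.66) lie past the upper line and Mmp7 (-1.05) past the lower one; centring the arrays on adipocyte markers would move every point left by 0.27.

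The lysyl oxidases were the family with the largest median. Loxl2, which oxidises lysines of collagens including those of basement membranes, was at 9.78 and 9.85 in the FD arrays, against 8.93 in each of the ND arrays. Its mean was 9.82 ± 0.05 in FD and 8.93 ± 0.00 in ND (SD, n = 2 arrays each), a difference of 0.89, or 1.85-fold. The nearest arrays of the diets were 0.85 apart, and duplicates differed by at most 0.07. A positive difference of this size or more was found in 60 of the 18211 probe sets, or 0.329%. Loxl2 was also the one member still called higher with the arrays centred on adipocyte markers, at 0.62.

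Loxl1, which cross-links tropoelastin in elastic fibres, was at 10.85 and 10.86 in FD, against 10.11 and 10.19 in ND. The mean was 10.86 ± 0.00 in FD and 10.15 ± 0.06 in ND (SD, n = 2 arrays each), a difference of 0.71, or 1.63-fold. The diets were 0.66 apart and duplicates agreed within 0.08. A difference this large and positive occurred in 0.736% of all probe sets. Centred on adipocyte markers, the difference was 0.44 and Loxl1 was no longer called.

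Loxl3, a lysyl oxidase known for cartilage and palate development in mice, was at 8.70 and 8.82 in FD, against 8.32 and 8.14 in ND. The arrays did not overlap, but the difference of 0.53 was just under the threshold, which it passed without FD array 1 (0.59) or without ND array 1 (0.61). Loxl4 had 7.10 and 7.17 in FD, against 6.87 and 6.81 in ND, a difference of 0.30. Lox itself, the founding member, had 10.16 and 10.33 in FD, against 9.93 and 10.16 in ND. Its lower FD array was level with its higher ND array, and its difference of 0.20, the smallest of the family, was -0.07 with the adipocyte centring. Both FD arrays lay above both ND arrays in 4 of the 5 genes, beside 36.3% of all probe sets.

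The inhibitors differed less. Timp1, a secreted inhibitor that also binds the proform of MMP9, was at 8.12 and 8.16 in FD, against 7.64 and 7.85 in ND. The mean was 8.14 ± 0.03 in FD and 7.75 ± 0.14 in ND (SD, n = 2 arrays each), a difference of 0.40, or 1.32-fold, with 0.28 between the nearest arrays of the diets. Timp2, which together with MMP14 takes part in the activation of pro-MMP2, was at 12.33 and 12.30 in FD, against 12.05 and 12.07 in ND, a difference of 0.26. Timp3, which binds to the matrix and also inhibits ADAM17 and several ADAMTS enzymes, was at 11.91 and 11.89 in FD, against 11.46 and 11.73 in ND. Its difference was 0.31, and the ND duplicates alone were 0.27 apart. Timp4 was at 11.28 and 11.25 in FD, against 11.09 and 11.26 in ND, and the diets overlapped. None of the 4 was called, and with the adipocyte centring they lay between -0.17 and 0.13.

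**Figure D2:**
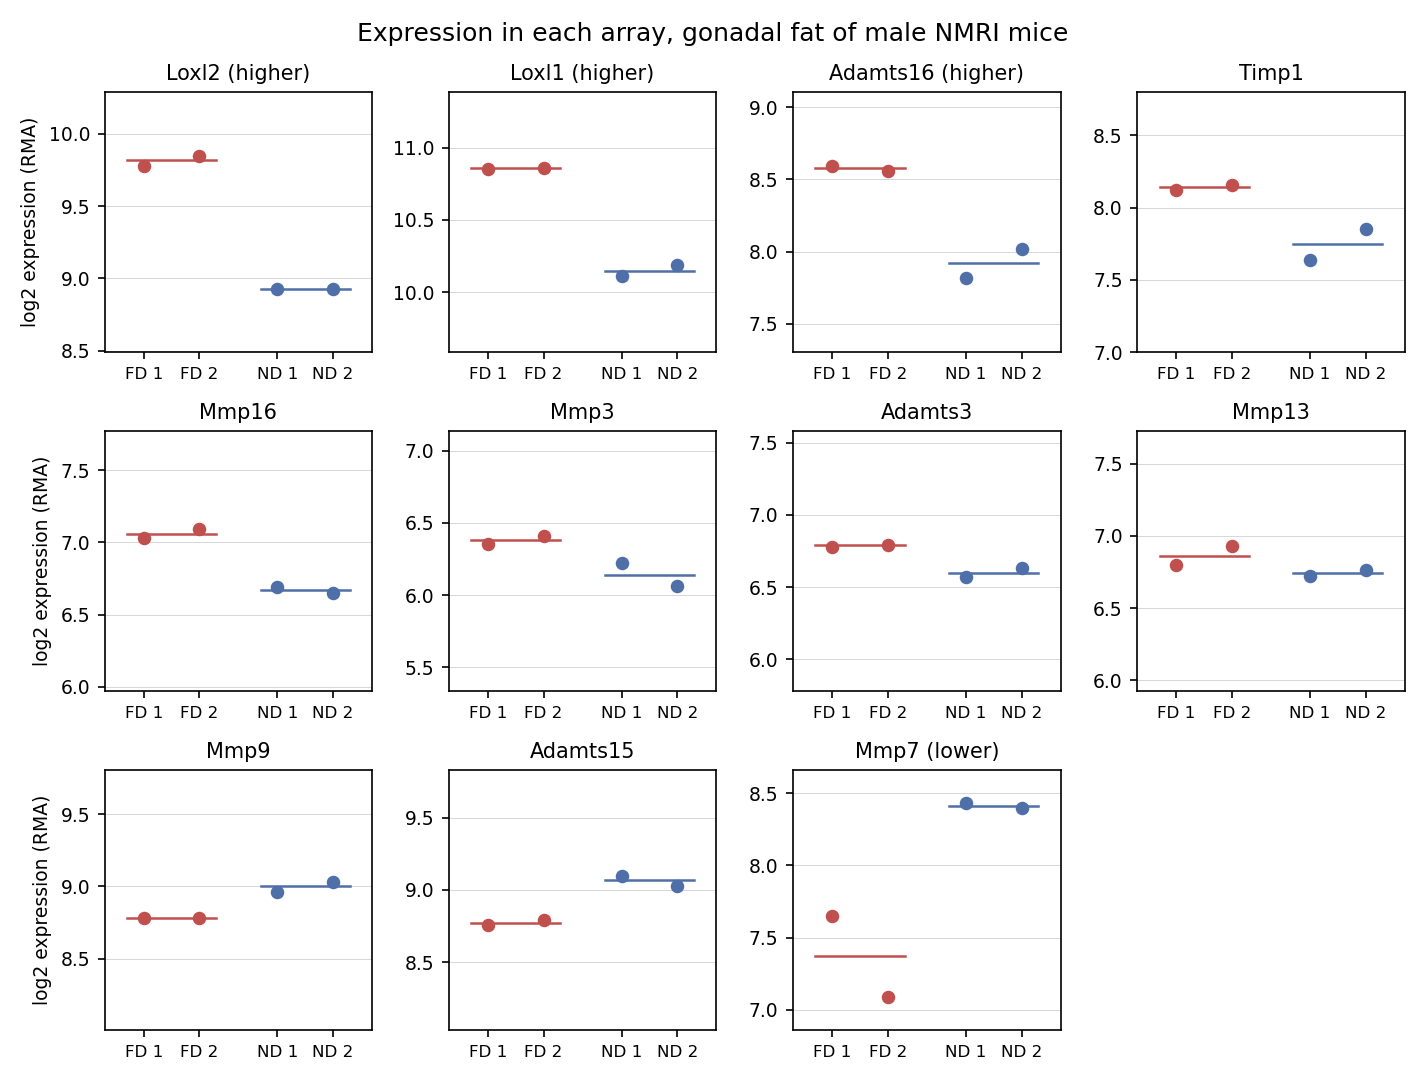
Log2 expression (vertical axis, RMA) in each of the 4 arrays for the 4 members called and for the member with the largest difference in each other role group, FD arrays in red left of ND arrays in blue; points are arrays, lines are means of 2 arrays, and every panel spans the same range. FD and ND arrays do not overlap in any panel, which the choice of members favours: it is a condition of a call, and 11 of all 46 members overlap. The FD duplicates of Mmp7 (7.65 and 7.09) are the widest apart.

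Among the ADAMTS genes, Adamts16 was called. It encodes a protease with fibronectin among its known substrates, and was at 8.59 and 8.56 in FD, against 7.82 and 8.02 in ND. The mean was 8.58 ± 0.02 in FD and 7.92 ± 0.14 in ND (SD, n = 2 arrays each), a difference of 0.66, or 1.58-fold, reached by 0.912% of all probe sets. The call was lost without ND array 1 (0.56) and with the arrays centred on adipocyte markers (0.39). Adamts19 was at 7.56 and 7.62 in FD, against 7.30 and 6.94 in ND. Its difference of 0.47 was not called with all 4 arrays, but reached 0.65 without ND array 1 and 0.29 without ND array 2, so that the ND duplicates decide its size. Of 9 genes in the group that holds Adamts16, 7 had both FD arrays above both ND arrays, beside 36.3% of all probe sets. Adamts7, which cleaves cartilage oligomeric matrix protein, had 8.69 and 8.74 in FD, against 8.31 and 8.28 in ND, a difference of 0.41. Adamts18 had a difference of 0.39 and Adamts10, whose human counterpart is tied to fibrillin microfibrils through Weill-Marchesani syndrome, one of 0.32.

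The proteoglycan-cleaving ADAMTS genes, whose products cut aggrecan and versican, gave no call. Their 7 differences lay between -0.29 and 0.21, with a median of 0.09, and with the adipocyte centring all 7 were negative, between -0.56 and -0.06. Adamts15 was at 8.76 and 8.79 in FD, against 9.10 and 9.03 in ND, the most negative value of the group at -0.29 and, centred on adipocyte markers, -0.56, just short of the threshold. Adamts5, the main aggrecanase of mouse cartilage, was at 12.64 and 12.62 in FD, against 12.44 and 12.63 in ND, and Adamts1, Adamts5 and Adamts8 overlapped between the diets. Adamts4 and Adamts9 had differences of 0.16 and 0.21. Of the procollagen N-proteinases, which trim the amino-terminal propeptide of fibrillar procollagens, Adamts3 had 6.78 and 6.79 in FD, against 6.57 and 6.63 in ND, a difference of 0.18, and Adamts14 one of 0.14. Adamts2 and, among the MMPs, Mmp15 were not analysed here.

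Among the MMPs, neither gelatinase gene was called. Mmp2, gelatinase A, a product of stromal cells, was at 11.51 and 11.53 in FD, against 11.38 and 11.39 in ND, a difference of 0.13 with duplicates 0.01 apart. Mmp9, gelatinase B, carried by neutrophils and macrophages, was at 8.78 in each FD array, against 8.96 and 9.03 in ND, a difference of -0.22. Centred on adipocyte markers, Mmp2 was at -0.13 and Mmp9 at -0.48. Beside it, 2 of 8 neutrophil markers at the level were lower in FD, Ltf (-1.63) and Ngp (-1.62), against 4.28% of all probe sets called lower. The other 6 lay between 0.02 and 0.24, and the median of the 8 was 0.07. The mean log2 level of all 9 neutrophil markers, Ltf and Ngp included, was 6.89 in both FD arrays, against 7.14 and 7.16 in ND. Their part in the Mmp9 value was not tested. Mmp12, the macrophage elastase, was at 7.84 and 7.90 in FD, against 7.86 and 7.67 in ND, which overlapped, while the median difference of 12 macrophage markers was 0.36.

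Of the 6 membrane-anchored MMPs, all had positive differences between 0.13 and 0.39, or between -0.13 and 0.13 with the adipocyte centring, and none was called. Mmp14, the membrane enzyme that activates pro-MMP2 and cuts fibrillar collagen, was at 10.83 and 10.85 in FD, against 10.65 and 10.76 in ND, a difference of 0.13. Mmp16 was at 7.03 and 7.09 in FD, against 6.69 and 6.65 in ND, the largest difference of the group at 0.39 and, centred on adipocyte markers, 0.13. Mmp23 and Mmp25 had 0.36 and 0.27. The stromelysin genes Mmp3, Mmp10 and Mmp11 had differences of 0.24, 0.20 and 0.09. Mmp13, the only collagenase gene that reached the level, had 6.80 and 6.93 in FD, against 6.72 and 6.76 in ND. Mmp3 and Mmp13 were at -0.03 and -0.14 with the adipocyte centring. Mmp28, an epithelial MMP, had 9.55 and 9.58 in FD, against 9.28 and 9.35 in ND, a difference of 0.25, and Mmp19 overlapped between the diets.

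Mmp7, or matrilysin, a small MMP without the hemopexin domain that is made mainly by epithelia of glands and ducts, was the exception. It was at 7.65 and 7.09 in FD, against 8.43 and 8.40 in ND. The mean was 7.37 ± 0.40 in FD and 8.41 ± 0.02 in ND (SD, n = 2 arrays each), a difference of -1.05, or 2.06-fold lower in FD. The FD duplicates were 0.56 apart, more than those of any other member at the level, and the nearest arrays of the diets were 0.75 apart. Without FD array 1 the difference was -1.32 and without FD array 2 -0.77, past the threshold in both cases. A negative difference of this size or more was found in 368 probe sets, or 2.02%.

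Markers of epididymal epithelium, a duct epithelium next to the gonadal fat pad, were read beside Mmp7. Of 11 such markers at the level, 8 were lower in FD, beside 4.28% of all probe sets called lower. Adam7 was at -7.09, Defb22 at -6.07, Rnase9 at -5.95 and Defb26 at -5.88. These 4 had FD means under 6, so the size of their differences is not determined. The mean log2 level of all 12 epididymal markers was 6.74 and 6.81 in the FD arrays, against 9.95 and 9.99 in ND. The other 3 at the level, Lcn8, Lcn9 and Cst11, had differences of 0.15, 0.16 and 0.13, and Gpx5, a defining marker, was under the level in both pools, at 4.45 and 4.50 in FD, against 4.75 and 4.80 in ND. The part of such tissue in the Mmp7 difference was not tested. In a bulk sample, fewer cells of a type and less RNA per cell cannot be told apart.

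Mmp7 lies at one end of a run of 10 neighbouring Mmp genes on chromosome 9 (RefSeq annotation, GRCm38.p6), in the order Mmp13, Mmp12, Mmp1b, Mmp3, Mmp1a, Mmp10, Mmp8, Mmp27, Mmp20 and Mmp7, between Dcun1d5 and Tmem123. Of the 7 that reached the level, Mmp7 was lower and the other 6 had differences between 0.11 and 0.27, or between -0.16 and 0.00 with the adipocyte centring. Except for Mmp12 (7.82), these 6 had means between 6.26 and 6.95, near the level of 6, where a fall may not show. The flanking Dcun1d5 and Tmem123 were at -0.03 and -0.17. None of these neighbours came near the difference of Mmp7.

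**Figure D3:**
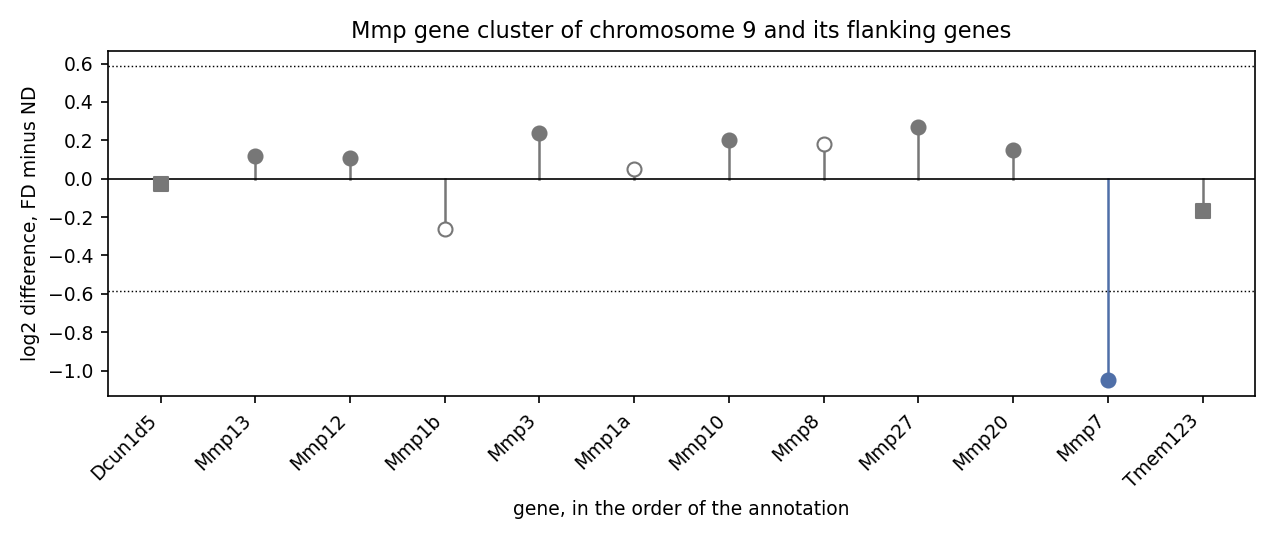
Log2 difference, FD minus ND (vertical axis), of the 10 Mmp genes of chromosome 9 in their order in the annotation (circles) and of both flanking genes (squares); dotted lines mark 1.5-fold and open circles genes under the level of 6. Mmp7, at -1.05, is past the lower line, and its neighbour Mmp20, with a mean of 6.39 near the level, is at 0.15.

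Most promoters of this cluster hold letters that the rule for members did not use. RefSeq promoter sequences were held for 31 of the 49 members. None was held for Loxl2, Loxl1 and Adamts16, the members called higher, which were therefore not searched. The letters sought in the 250 bases before the start were TGANTCA (the core of an AP-1 site, the same on both strands, with N for any base). They were found in 8 of these 31, all of them in the cluster: 8 of its 10 genes and none of the 21 other members with a sequence. Counted by start, they were found in 8 of 34 starts of members, against 6.75% of 32851 annotated starts of all genes. The last 90 bases before the start are shown for Mmp7 and for 3 neighbours that reached the level, because they hold the same letters while differing in their values. They are written from 5′ to 3′ on the plus strand, with the match in capitals.
Mmp7: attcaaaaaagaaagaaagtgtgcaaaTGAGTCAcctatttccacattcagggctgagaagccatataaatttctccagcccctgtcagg
Mmp10: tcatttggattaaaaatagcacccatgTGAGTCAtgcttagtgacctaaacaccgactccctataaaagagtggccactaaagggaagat
Mmp3: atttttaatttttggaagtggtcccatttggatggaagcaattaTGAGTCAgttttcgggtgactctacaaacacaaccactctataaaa
Mmp13: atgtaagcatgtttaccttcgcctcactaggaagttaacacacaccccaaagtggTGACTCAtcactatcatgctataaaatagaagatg
The windows are chr9:7692000-7692089 for Mmp7, chr9:7502252-7502341 for Mmp10, chr9:7445732-7445821 for Mmp3 and chr9:7272424-7272513 for Mmp13. Counted back from the start, the match begins at -63 in Mmp7 and Mmp10, at -46 in Mmp3 and at -35 in Mmp13. Mmp8 and Mmp27 had no match. Mmp7 and Mmp12 each have another annotated start, without a match. With the same letters before their starts, Mmp7 was at -1.05 and Mmp10, Mmp3 and Mmp13 were at 0.20, 0.24 and 0.12. The means of Mmp10, Mmp3 and Mmp13 over the 4 arrays were 6.95, 6.26 and 6.80. These are near the level of 6, where a fall may not show. A match of letters describes the sequence and does not show that a factor binds there.

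The other genes of matrix assembly were looked at by lists, whose counts stand beside 1.33% of all probe sets called higher and 4.28% called lower. Among fibrillar collagens, the main substrates of the lysyl oxidases, 3 of 9 were higher in FD, none was lower and 6 were not called, with a median of 0.49. Col5a2 had a difference of 0.75 and Col5a3 and Col3a1 of 0.73 each, and Col1a2 was at 0.49. Of 16 genes of elastic fibres and their partners, 5 were higher and none was lower, with a median of 0.37. Emilin2, a glycoprotein of elastic fibres, was at 1.08, the microfibril gene Mfap5 at 1.03, Fbln2 at 0.86 and Efemp1 at 0.65. Of 16 genes of collagen processing and cross-linking, 2 were higher, Pcolce2 (1.11) and Pcolce (0.64), enhancers of the C-terminal procollagen proteinase, and all 16 differences were positive, with a median of 0.30. With the arrays centred on adipocyte markers, 0 collagens, 3 elastic fibre genes and 1 processing gene were called higher.

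Substrates of the proteases gave a similar picture. Of 15 proteoglycans and glycoproteins, 4 were higher, Ncan (0.92), Vcan (0.69), Postn (0.66) and Lum (0.61), with a median of 0.26. Vcan, which encodes versican, a substrate of the ADAMTS enzymes, was at 10.12 and 10.26 in FD, against 9.42 and 9.58 in ND, while the ADAMTS genes of that group had a median of 0.09. Of 17 genes of protease activation and other inhibitors, 2 were higher and none was lower, with a median of 0.20. The 2 were Pcsk6 (0.77), a proprotein convertase, and Hpx (0.69), the gene of the plasma protein hemopexin. Both FD arrays lay above both ND arrays in 12 of the 17, beside 36.3% of all probe sets. They lay below in 3, among them Plau (-0.42), beside 27.2%. Without FD array 2, 4 of the 17 were called higher. Hpx is made by the liver, and of 9 liver markers 7 were higher in FD, beside 1.33% of all probe sets. Alb, the albumin gene, was at 11.42 and 11.47 in FD, against 7.37 and 7.23 in ND. Tat (0.41) and Hnf4a (-0.20) were not called, and Hnf4a had both FD arrays below both ND arrays. The mean log2 level of the 9 liver markers was 8.47 and 8.55 in FD, against 6.88 and 6.92 in ND, and their part in the Hpx value was not tested. Of 7 ADAMTS-like genes, none was called and the median was 0.23, with Adamtsl3 at 0.46. With the adipocyte centring, 1 of the substrates was called higher. Of the activation genes, none was then called higher and 1 was called lower, beside 72 and 1660 of all probe sets.

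**Figure D4:**
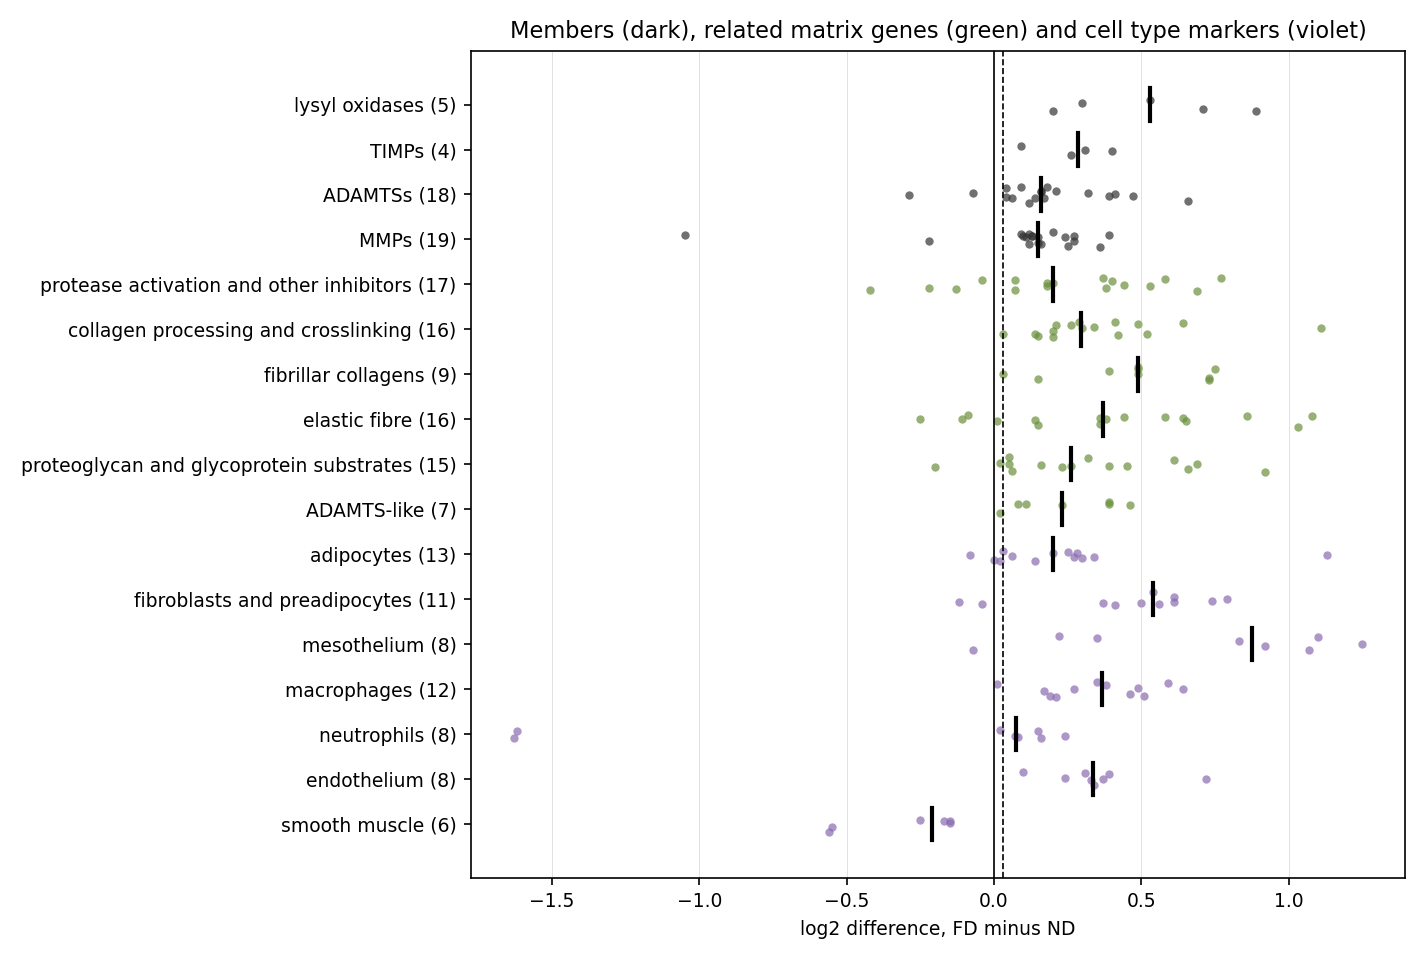
Log2 difference, FD minus ND (horizontal axis), of single genes at the level of 6 or more, with the number of genes in brackets, for the 4 member families, related matrix genes and cell type markers; thick bars are medians and the dashed line is the median of all probe sets, 0.03. Lysyl oxidases have a median of 0.53, near fibrillar collagens at 0.49 and fibroblast markers at 0.54, and ADAMTS genes and MMPs are at 0.16 and 0.15; centring on adipocyte markers moves every point left by 0.27, which puts the last 2 medians under 0.

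Markers of cell types in the fat pad also differed between the pools. Their counts stand beside 1.33% of all probe sets called higher and 4.28% called lower. Adipocyte markers were high in both, with Adipoq at a mean of 13.45 in FD and 13.40 in ND, and had a median difference of 0.20, with Cidea (1.13) called of 13. Fibroblast and preadipocyte markers had a median of 0.54, with 4 of 11 higher. These were Thy1 (0.79) and the collagen genes Col6a3 (0.74), Col6a2 (0.61) and Col6a1 (0.61). The mean log2 level of the markers was 10.84 and 10.83 in the FD arrays, against 10.36 and 10.40 in ND. Pdgfra, which defines fibroblasts and preadipocytes, was at -0.04 and Dpp4 at -0.12, each with both FD arrays below both ND arrays. The other 9 had both FD arrays above both ND arrays, beside 36.3% of all probe sets. Mesothelial markers had a median of 0.88, with 5 of 8 higher, and a mean level of 10.09 in both FD arrays, against 9.34 and 9.42 in ND. Krt7, the 1 mesothelial marker with a negative difference, was at -0.07 and overlapped between the diets. With the adipocyte centring, 0 fibroblast and 4 mesothelial markers were called higher, beside 72 of all probe sets. All 6 smooth muscle markers had both FD arrays below both ND arrays, beside 27.2% of all probe sets, with a median of -0.21. None was called, and 2 were called lower with the adipocyte centring, beside 1660 of all probe sets. The part of these cells in the differences of Loxl1, Loxl2 and Adamts16 was not tested.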

How the data were processed

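RNA of gonadal fat from 3 male mice per diet was pooled and hybridised in duplicate. The authors deposited log2 expression values from RMA, named in the submitters' processing notes, with probe sets identified by Entrez gene number; its software, version and genome build were not given in the sources used here. Values were used as deposited. Between 85.2% and 86.2% of the 21225 probe sets per array were at 6 or more. Arrays have no sequencing depth, and their number limits the precision. The symbols of all 49 members matched RefSeq by Entrez number.

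Duplicate arrays count as 1 sample per diet, so a rule of size (1.5-fold, no overlap, mean of at least 6) replaced a test of the diets. The rule was tested on simulated arrays with noise taken from the ND duplicates, which hold no spread between pools or mice. The members and gene lists were chosen with earlier results of these data known. All members could be named, with array values for called members and the largest difference per role, and up to 4 genes per list. Adipoq and Pdgfra (defining markers), Gpx5, Lcn8, Lcn9, Cst11, Tat, Hnf4a, Plau, Dpp4, Krt7, Dcun1d5, Tmem123 and members with values beyond the rule were picked with their values in view. Alternatives were other filters and fold thresholds, centring on medians or adipocyte markers, cyclic loess, each array left out, and limma (version 3.58.1, R 4.3.3), which sets the difference between pools against the spread of duplicates. Promoters are from RefSeq (GRCm38.p6).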

Additional observations from a re-analysis of the deposited data

How the results depend on the processing

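Loxl2, Loxl1 and Adamts16 as higher and Mmp7 as lower were called without a filter, with a filter at 7, with median centring and with cyclic loess. Members called higher numbered 9 at 1.3-fold, 0 at 2-fold and 1 with adipocyte centring (Loxl2), and between 3 and 4 with 1 array left out. Without ND array 1, Adamts16 was lost and Adamts19 and Loxl3 were gained, and without FD array 1 Loxl3 was gained. Mmp7 was called lower in each of these settings. The median of the members, 0.17, was 0.16 with the filter at 7, 0.21 with median centring, 0.12 with cyclic loess, -0.10 with adipocyte centring and between 0.17 and 0.19 with 1 array left out. Adipocyte centring turned 27 of the 42 positive members negative, none of them called, among them Mmp13 (-0.14), Adamts3 (-0.08) and Mmp3 (-0.03), and by construction lowers every difference by 0.27, whereas median centring raises it by 0.05. Among all probe sets, 242 were called higher and 780 lower, against 869 and 1333 at 1.3-fold, 41 and 386 at 2-fold, and 72 and 1660 with adipocyte centring.

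Against array noise only, limma called 13 members higher and 2 lower (1676 and 1809 of all probe sets), and with a replicate block 12 higher and 2 lower (1483 and 1723). Same-numbered arrays of the diets did not deviate together (correlation 0.03 over probe sets), so the numbers do not pair the arrays. With 1 pool per diet, these counts say nothing of the spread between mice.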
